A study of Mus musculus with 2 samples.

Results

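Integrins are the receptors with which a cell holds on to the extracellular matrix. Each is a pair of an alpha and a beta chain that spans the plasma membrane, and the pairing decides which matrix protein is bound and whether talin, kindlins and focal adhesion kinase are recruited on the inside. Melanocytes and their stem cells sit among keratinocytes and against the basement membrane of the hair follicle, so laminin, collagen, fibronectin and vitronectin receptors are the ones usually studied in them. The 10 integrin subunit genes described here were chosen by name, out of the 32285 genes in each matrix. They and the gene lists used below were chosen with earlier results of these data known. Their counts beside those of all genes are therefore a description and not a test. They encode 7 alpha chains (*Itga1*, *Itga2*, *Itga3*, *Itga4*, *Itga6*, *Itga9* and *Itgav*) and 3 beta chains (*Itgb1*, *Itgb3* and *Itgb5*).

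The genes were followed in 2 droplet libraries of GFP-sorted mouse back skin cells. One library held early-anagen melanocyte stem cells (McSCs), labelled Activated McSC, from mice depilated at 8 weeks of age and killed 4 days later. The other held mature melanocytes of the hair bulb, labelled Differentiated Mc, from mice of 5 weeks whose follicles were in full anagen. All mice were Dct-rtTA; tetO-H2B-GFP on mixed backgrounds and of either sex, and had eaten doxycycline chow for 4 days, so that the *Dct* promoter, through rtTA, switched on the nuclear GFP used for sorting. The sort was thus meant for cells that use this promoter. Each library pooled cells of 4 mice. The early-anagen cells had been released with trypsin and captured with version 3 chemistry. The bulbs had been cut out after EDTA and digested with collagenase and dispase, and their cells were captured with version 2 chemistry. No depilation was named for the bulb mice. Condition, depilation, age, dissociation and chemistry cannot be told apart in this design. No p-value was computed because each condition was 1 library and cells of 1 library are not replicates.

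Cells were taken as melanocytes when they had at least 1 *Dct* UMI, fewer than 3 UMIs of *Krt10* and *Krt14* together, under 5% mitochondrial UMIs, and more than 10000 (early anagen) or 5000 (bulb) UMIs. A UMI is a molecular tag that counts 1 captured transcript. This gave 2785 early-anagen McSCs of 11010 barcodes and 3734 bulb melanocytes of 4327 barcodes, with median depths of 24528 and 14286.5 UMIs and totals of 75718468 and 55883067 UMIs. The 8 melanocyte markers were present in both groups, each in at least 85.3% of McSCs and 75.5% of bulb melanocytes. Epidermal markers summed to 35.0 UMIs per 1000000 UMIs (CPM) in early anagen, where 8 of 8 were detected, and to 64.4 CPM in the bulb, where *Krt15* and *Krt1* were at 0. Markers of the hair matrix and inner root sheath summed to 2.58 and 46.2 CPM. Fibroblast markers summed to 1.32 and 0.823 CPM and endothelial markers to 0.225 and 0.0537 CPM. Immune markers summed to 2.75 and 7.30 CPM, with *Lyz2* in 4.45% of McSCs and 7.26% of bulb melanocytes, and with *Ptprc* and *Cd3e* at 0 in the bulb. No barcode was shared between the melanocytes of the libraries. Intervals in the text are exact 95% intervals (Poisson for sums and their ratios, Clopper-Pearson for shares) and cover counting error only, not the spread between mice.

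Mature bulb melanocytes carried less integrin mRNA than early-anagen McSCs, and the set of subunits was different. In McSCs the leading subunits were *Itgb1*, *Itgav* and *Itga6*, followed by *Itga9*, *Itga1*, *Itgb5* and *Itga4*. In bulb melanocytes *Itga1* and *Itgb5* were close to absent, *Itga6* was lower by 5.24-fold, and *Itgb3* was higher by 13.6-fold. *Itga1*, *Itgb5* and *Itgb3* were under the mean of 10 CPM over both groups that is asked for a call below. The *Itgb3* fold rests on 42 UMIs in early anagen. *Itgav* kept the closest level in both. The 8 alpha chain genes *Itga1*, *Itga2*, *Itga3*, *Itga4*, *Itga5*, *Itga6*, *Itga9* and *Itgav* together made up 138 CPM in early anagen and 51.0 CPM in the bulb, *Itga5* being the fibronectin receptor chain, which was not among the 10.

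**Figure D1:**
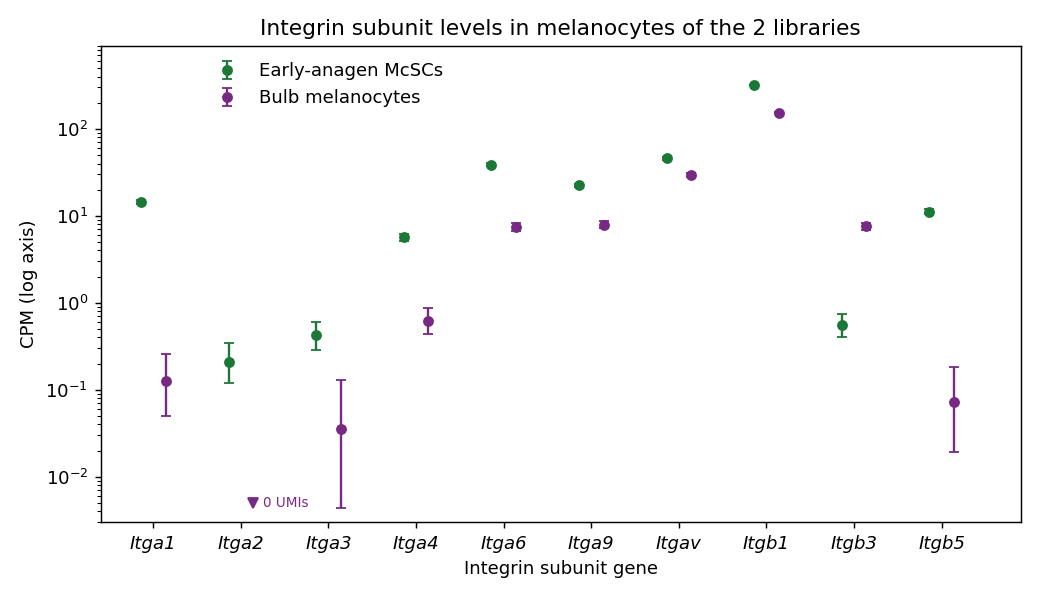
Level of each integrin subunit gene in CPM (log axis) in early-anagen McSCs (green, 2785 cells) and bulb melanocytes (purple, 3734 cells); bars are exact 95% Poisson intervals of the summed UMIs and the triangle marks 0 UMIs. The purple point lies below the green one for every gene except *Itgb3*, and the gap is widest for *Itga1* and *Itgb5*.

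*Itgb1*, the common beta chain that pairs with most of the alpha chains named here, was the highest of the 10 in both libraries. It was at 320.1 CPM in early anagen (24236 UMIs) and at 153.0 CPM in the bulb (8551 UMIs). The bulb level was 2.09-fold lower, a log2 ratio of -1.06 (-1.10 to -1.03). Counting *Itgb1* itself, 447 genes in early anagen and 1083 in the bulb were at or above its level.

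*Itgav*, the alpha chain of the vitronectin and fibronectin receptors, came next in both libraries, with 45.9 CPM (3473 UMIs) in early anagen and 29.5 CPM (1646 UMIs) in the bulb. Its log2 ratio of -0.64 (-0.72 to -0.55) was below 0 but did not reach the 2-fold limit used for this comparison. Among the UMIs of the 8 alpha genes, *Itgav* made up 33.2% (32.3% to 34.1%) in early anagen and 57.8% (55.9% to 59.6%) in the bulb. Its share of the alpha mRNA was thus larger in the bulb, where its own level was lower.

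The beta chains that pair with *Itgav* in place of *Itgb1* were exchanged almost completely. *Itgb5* was found with 846 UMIs in early anagen (11.2 CPM, 10.4 to 12.0) and 4 UMIs in the bulb (0.0716 CPM, 0.0195 to 0.183), 156-fold lower. *Itgb8*, which pairs with *Itgav* in a receptor that activates latent TGF-beta, had 250 UMIs in early anagen (3.30 CPM) and 0 in the bulb. With the 0 set at 3 counts *Itgb8* was 61.5-fold lower, and the exact upper limit of its log2 ratio was -5.63. *Itgb3*, whose pairing with *Itgav* is the classical vitronectin receptor, had 42 UMIs in early anagen (0.555 CPM, 0.400 to 0.750) and 422 in the bulb (7.55 CPM, 6.85 to 8.31). *Itgb6*, the epithelial partner of *Itgav*, had 0 UMIs in either group of melanocytes. Of the summed UMIs of *Itgb3*, *Itgb5* and *Itgb8*, *Itgb5* held 74.3% (71.7% to 76.9%) of 1138 in early anagen and *Itgb3* held 99.1% (97.6% to 99.7%) of 426 in the bulb. The summed level of these 3 genes was 15.0 CPM in early anagen and 7.62 CPM in the bulb.

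**Figure D2:**
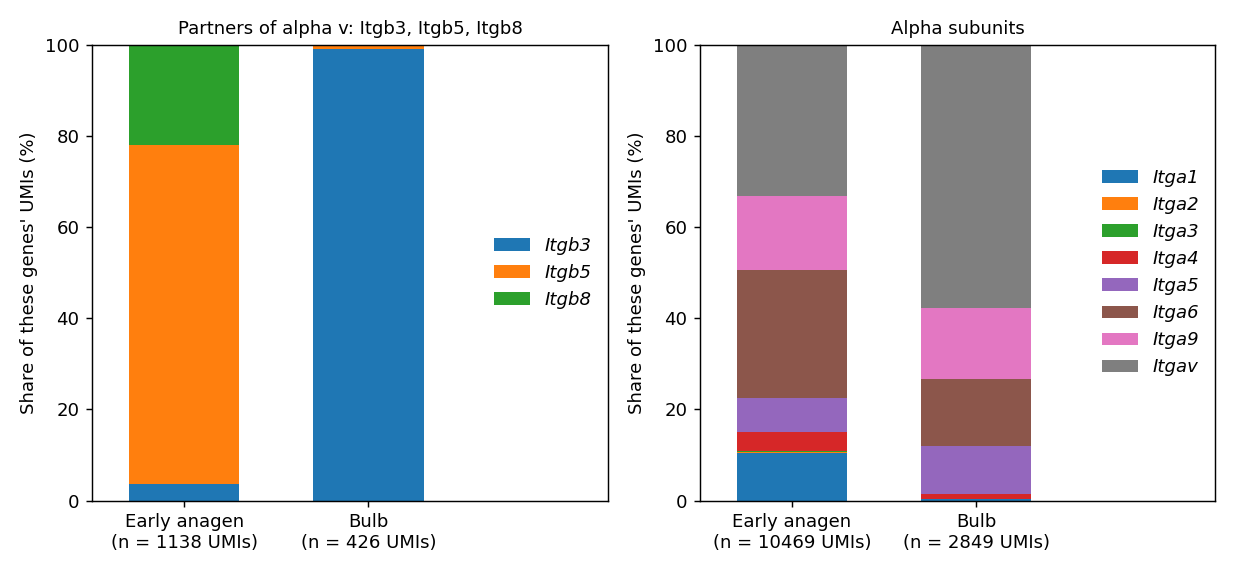
Share (%) of the summed UMIs held by each gene, in early anagen and in the bulb, for the beta chains *Itgb3*, *Itgb5* and *Itgb8* (left, 1138 and 426 UMIs) and for 8 alpha chains (right, 10469 and 2849 UMIs). On the left the early-anagen bar is mostly *Itgb5* and the bulb bar almost all *Itgb3*; on the right the share of *Itgav* is 33.2% in early anagen and 57.8% in the bulb.

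The few *Itgb5* UMIs of the bulb lay in cells that also carried epithelial transcripts. All 4 were in the 125 bulb melanocytes with at least 1 UMI of *Krt5*, *Krt14*, *Krt15*, *Krt17*, *Sfn* or *Perp*. The other 3609 bulb melanocytes had 0 *Itgb5* UMIs because this split, made after the data were seen, left out all 4. No limit on the level is drawn from that 0. Over all bulb melanocytes the log2 ratio to early anagen was -7.29 (-9.17 to -5.92). Where the 4 UMIs came from was not tested. Epithelial-rich barcodes were those with at least 20 UMIs of *Krt5*, *Krt14*, *Krt17*, *Sfn* and *Perp* and more of these than of *Dct* and *Pmel*, 97 in early anagen and 40 in the bulb, of which 2 and 17 also met the melanocyte rule. In the 40 of the bulb, *Itgb5* had 7 UMIs in 6 cells. In early anagen, *Itgb5* was at the same level in McSCs with and without such epithelial UMIs, at 10.8 CPM (684 cells) and 11.3 CPM (2101 cells). It was also present in the 97 epithelial-rich barcodes of that library, at 24.7 CPM. *Itgb3* was at 7.45 CPM in the 3609 bulb cells without epithelial UMIs and at 10.4 CPM (20 UMIs) in the 125 with them. It had 0 UMIs in the 40 epithelial-rich bulb barcodes, but the Clopper-Pearson limit for 40 barcodes is 8.81%, close to the 9.37% of bulb melanocytes at full depth.

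The 422 *Itgb3* UMIs of the bulb lay in many cells, but in fewer than those of subunits at a similar level. At full depth 350 of 3734 bulb melanocytes (9.37%) held an *Itgb3* UMI, 54 of them held at least 2, and the highest cell held 5. The 415 UMIs of *Itga6* lay in 379 bulb cells, 33 of them with at least 2. The 444 of *Itga9* lay in 403, 40 of them with at least 2, and no cell held more than 3 of either gene. In early anagen 32 of 2785 cells (1.15%) held an *Itgb3* UMI, and 1 cell alone held 9 of the 42 UMIs. Without that cell the log2 ratio of the bulb over early anagen was 4.11 (3.60 to 4.67), against 3.77 (3.31 to 4.26) with it. The immune markers were also higher in the bulb, and *Itgb3* was read in cells with and without a UMI of them. It was at 7.44 CPM in 3451 bulb melanocytes without one and 0.462 CPM in 2655 such McSCs, a log2 ratio of 4.01. In the 283 bulb melanocytes with one it was at 8.85 CPM. Whether immune transcripts had a part in the difference was not tested. The early-anagen cell with 9 *Itgb3* UMIs was the only one with *Itgb3* among the 130 McSCs with an immune UMI.

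The collagen receptor chain *Itga1*, which pairs with *Itgb1* and binds type IV collagen, showed the largest decrease among the alpha chains with UMIs in both groups. It had 1089 UMIs in early anagen (14.4 CPM, 13.5 to 15.3) and 7 in the bulb (0.125 CPM, 0.0504 to 0.258), 115-fold lower. Each of the 7 bulb UMIs lay in a separate cell, and none of those cells had an epithelial UMI. In early anagen 699 cells (25.1%) held an *Itga1* UMI and the highest held 12. *Itga2*, the other collagen receptor chain among the 10, lies 20995 bases from *Itga1* on the same strand (GRCm38, chromosome 13, 114833081 to 114932100 for *Itga2* and 114953096 to 115101964 for *Itga1*). It had only 16 UMIs in early anagen (0.211 CPM) and 0 in the bulb, at least 3.94-fold lower. *Itga1* shares its strand with *Pelo* and Gm49395, which lie within its span, so reads in the overlap may not have been assigned to it.

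The stretches just upstream of the 2 genes that were nearly lost from the bulb, *Itga1* and *Itgb5*, are shown because these genes had the largest differences of the 10. They are the 250 bases before the annotated start in RefSeq (GRCm38.p6), at chr13:115101965-115102214 on the minus strand and chr16:33829415-33829664 on the plus strand, written 5′ to 3′.
*Itga1*: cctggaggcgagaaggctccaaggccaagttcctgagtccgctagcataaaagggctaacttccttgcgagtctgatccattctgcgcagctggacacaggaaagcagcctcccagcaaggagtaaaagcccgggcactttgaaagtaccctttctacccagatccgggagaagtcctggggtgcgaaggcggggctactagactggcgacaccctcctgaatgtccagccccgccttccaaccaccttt
*Itgb5*: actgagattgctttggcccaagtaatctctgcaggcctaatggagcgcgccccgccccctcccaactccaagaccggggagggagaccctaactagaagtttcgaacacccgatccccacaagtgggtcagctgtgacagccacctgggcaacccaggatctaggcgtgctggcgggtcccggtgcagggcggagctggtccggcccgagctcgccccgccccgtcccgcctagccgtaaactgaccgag
Neither holds CACGTG or CATGTG, the E-box letters often examined for the melanocyte factor MITF, on either strand, which is why no letter is in capitals. Windows of the same length were given for 8 of the 10 genes. CACGTG was in none of the 8, against 6.02% of 32851 promoters of all genes, and CATGTG was in 1 of the 2 windows of *Itga3*, against 12.3%. That *Itga3* window and the window of *Itga9* lie inside the GENCODE spans of these genes, not before their first base. A motif that is missing from such a window says nothing about binding elsewhere.

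The laminin receptor chains were also lower in the bulb. *Itga6*, which binds laminins with *Itgb1* or *Itgb4*, was at 38.9 CPM in early anagen (2946 UMIs) and 7.43 CPM in the bulb (415 UMIs), a log2 ratio of -2.39 (-2.54 to -2.24). At full depth 57.8% of McSCs and 10.2% of bulb melanocytes had an *Itga6* UMI. *Itgb4*, its partner in hemidesmosomes, was low in McSCs (122 UMIs, 1.61 CPM) and had 12 UMIs in the bulb, of which 10 were in cells with epithelial UMIs. *Itga3*, which pairs with *Itgb1* to bind laminin of the basement membrane, was at 0.423 CPM (32 UMIs) in early anagen and had 2 UMIs in the bulb, both in cells with epithelial UMIs. In epithelial-rich barcodes of the early-anagen library the levels were 183 CPM for *Itga6*, 42.4 CPM for *Itgb4* and 23.4 CPM for *Itga3*. McSCs thus held *Itga6* and *Itgb1* with little *Itgb4* or *Itga3*, while the epithelial-rich barcodes held all of these.

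*Itga4* and *Itga9* form a pair of related alpha chains that join *Itgb1* and bind fibronectin splice forms, VCAM-1, tenascin and osteopontin. *Itga4* was at 5.65 CPM in early anagen (428 UMIs) and 0.626 CPM in the bulb (35 UMIs), a log2 ratio of -3.17 (-3.71 to -2.68). *Itga9* was at 22.4 CPM (1697 UMIs) and 7.95 CPM (444 UMIs), a log2 ratio of -1.50 (-1.65 to -1.34). Among ligands of these chains detected in the melanocytes themselves, all under a mean of 10 CPM and named after their values were seen, *Vcam1* had 479 UMIs in early anagen and 11 in the bulb, *Tnc* had 99 and 0, and *Spp1* had 9 and 18.

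The order of the 10 genes is given in CPM of 3′-end tags, which were not divided by transcript length. In early anagen each of the first 7 (*Itgb1*, *Itgav*, *Itga6*, *Itga9*, *Itga1*, *Itgb5*, *Itga4*) was above the next with intervals that did not overlap. *Itgb3*, *Itga3* and *Itga2* followed at 0.555, 0.423 and 0.211 CPM, and each of these overlapped its neighbour. In the bulb *Itgb1* and *Itgav* were again first, then *Itga9*, *Itgb3* and *Itga6* with overlapping intervals (7.95, 7.55 and 7.43 CPM), then *Itga4*. *Itga1*, *Itgb5*, *Itga3* and *Itga2* could not be ordered at this depth.

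Of the 10 genes, 4 had a mean of at least 10 CPM over both groups (*Itga6*, *Itga9*, *Itgav* and *Itgb1*). Past the 2-fold limit with an interval off 0 were 3 of these 4, all lower in the bulb, and 0 higher. The same rule was met by 25.8% of the 7291 genes tested in the lower direction and 16.4% in the higher direction. Because the 10 were chosen with earlier results of these data known, the values for all genes are only a setting for theirs. The median log2 ratio was -1.28 for the 4 and -0.11 for all genes tested. With no CPM minimum, 9 of the 10 had UMIs in both groups, and 7 of the 9 were lower and 1 higher, where 31.6% and 13.5% of 15495 genes were. The median of the 9 was -2.39, and -2.18 over all 10 with the 0 of *Itga2* set at 3 counts, against -0.42 for all 15495. Scaling by edgeR TMM factors, which moved the median of all genes to 0.22 and the share of calls that were higher from 38.8% to 56.5%, left *Itgb1* at -0.75 and so under the limit, and *Itgav* at -0.33.

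**Figure D3:**
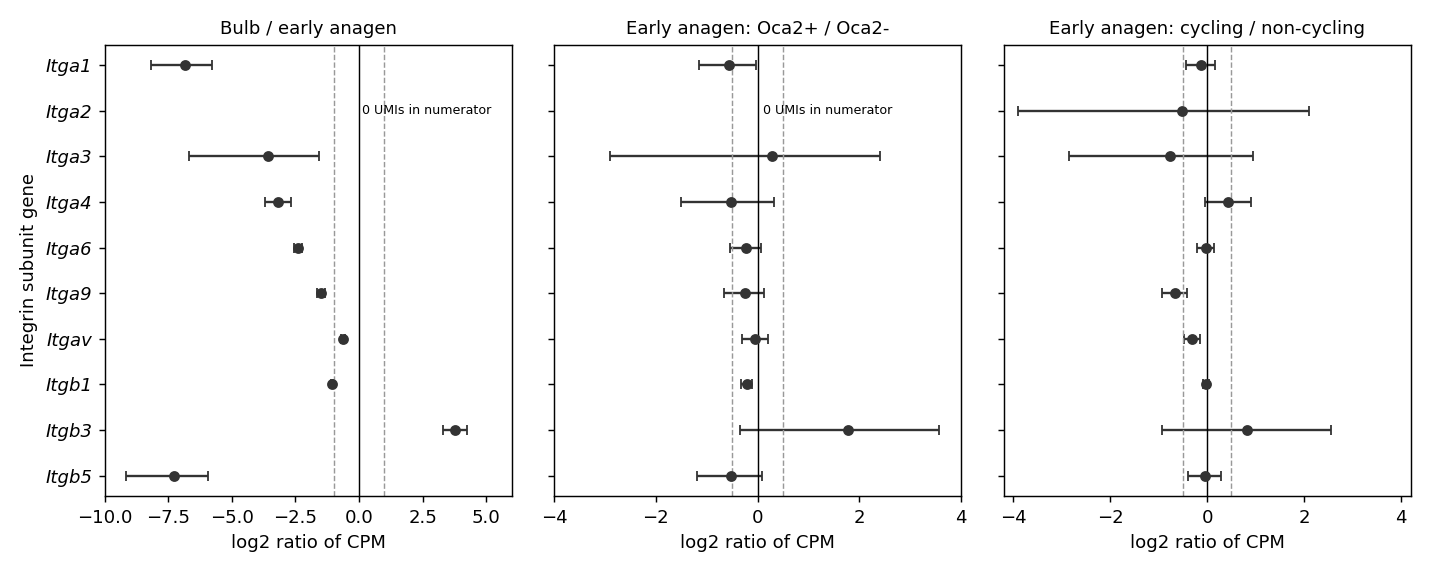
Log2 ratio of CPM for each of the 10 genes with exact 95% intervals, for the bulb over early anagen (left), for *Oca2*+ over *Oca2*- early-anagen cells (middle) and for cycling over non-cycling early-anagen cells (right); dashed lines mark the fold limits and the scale of the left panel is wider. In the left panel 8 of the 9 points are below 0 and *Itgb3* is above it, whereas in the other panels most intervals reach 0.

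Shares of cells were compared at equal depth, every cell being thinned at random to 5000 UMIs, for which no cell was left out. *Itgb1* was then seen in 77.4% (75.8% to 79.0%) of McSCs and 52.5% (50.9% to 54.1%) of bulb melanocytes. *Itgav* was seen in 20.9% and 13.0%, *Itga6* in 18.4% and 3.37%, and *Itga9* in 11.3% and 3.64%. *Itga1* was in 7.36% (6.42% to 8.39%) of McSCs and in 2 of 3734 bulb cells (0.0536%), and *Itgb5* was in 5.82% (4.98% to 6.75%) and again 2 cells. *Itgb3* ran the other way, with 4 of 2785 early-anagen cells (0.144%, 0.0391% to 0.367%) and 3.29% (2.75% to 3.92%) of bulb cells.

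The level that counts as background was read from 8 leukocyte and platelet integrins, which are known from blood cells. At 5000 UMIs they were in at most 0.0718% of McSCs and 0.107% of bulb melanocytes. The bulb value came from *Itga2b* alone, in 4 cells, and the others were at 0 there. At full depth *Itga2b* was also in 8 of 97 epithelial-rich barcodes of early anagen and 2 of 40 of the bulb. It is thus an uncertain measure of background. *Itga2* and *Itga3* in the bulb were also at 0. *Itga1* and *Itgb5* in the bulb, in 2 cells each, lay below *Itga2b* but above the others. This background therefore cannot decide whether their few UMIs are expression. *Itga2* in early anagen (4 cells, 0.144%), *Itgb3* in early anagen and *Itga3* in early anagen (8 cells, 0.287%) were above the highest background share of that library. Their intervals overlapped that of the background gene, *Itgae* (0.0718%, 0.00870% to 0.259%). At full depth *Itga3* was in 1.11%, *Itgb3* in 1.15% and *Itga2* in 0.575% of McSCs, against 0.467% for *Itgae*, again the highest of the background genes. The 97 epithelial-rich barcodes of early anagen had a median of 34075 UMIs. At 5000 UMIs they held *Itga6* in 46.4%, *Itgb1* in 53.6%, *Itga2* in 10.3% and *Itga3* in 9.28%, and *Itgb3* in 0 of 97.

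**Figure D4:**
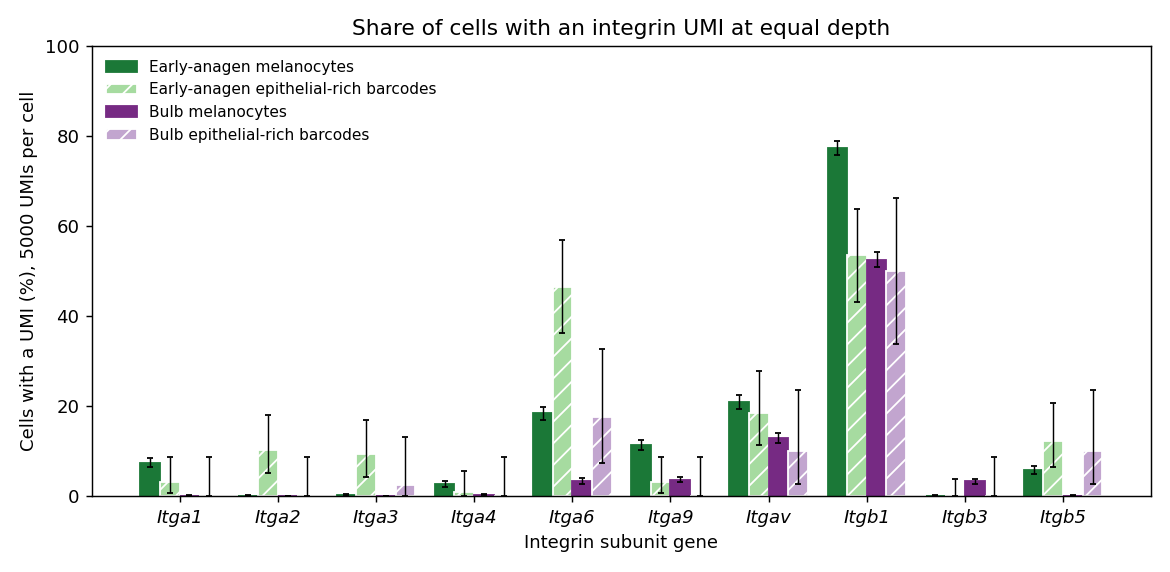
Share (%) of cells with a UMI of each gene after thinning every cell to 5000 UMIs, for melanocytes (solid bars, 2785 early anagen and 3734 bulb) and epithelial-rich barcodes (hatched, 97 and 40); error bars are Clopper-Pearson 95% intervals. *Itgb1* is in most early-anagen melanocytes, *Itga6* is highest in the epithelial-rich barcodes of early anagen, and *Itgb3* is visible only in bulb melanocytes at this scale.

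Counted per cell, early-anagen McSCs held a UMI of 1.44 of the 10 genes on average at 5000 UMIs, and bulb melanocytes of 0.762. None of the 10 genes was seen in 12.2% of the former and 37.8% of the latter, and 3 or more of the genes were seen in 12.4% and 1.15%. At full depth the means were 3.25 and 1.51. Within early anagen, the detection of subunits was compared in pairs of genes, *Itgb8* included. At 10000 UMIs the share of cells with the one gene had overlapping intervals in cells with and without the other for 24 of 28 pairs, whichever gene was taken first. The exceptions were *Itgb8* with *Itgb5*, *Itga1* with *Itgav*, *Itga1* with *Itgb1* and *Itgav* with *Itgb1*. *Itgb5* was in 20.8% (12.4% to 31.5%) of 77 cells with *Itgb8* and 10.3% (9.22% to 11.5%) of those without it. With *Itgb5* taken first this pair overlapped: *Itgb8* was in 5.41% (3.12% to 8.63%) of cells with *Itgb5* and 2.45% (1.88% to 3.14%) of those without. *Itgav* was in 44.0% of cells with *Itga1* and 35.5% of those without it. *Itgb1* was in 95.7% and 91.6% of cells with and without *Itga1*. It was in 94.3% and 90.8% of cells with and without *Itgav*. At 5000 UMIs other pairs stood apart, 4 of 28, so these pairs are given as a description of counts with few UMIs per cell. Pairs of other genes were not set beside them, so the count of pairs is not a result about integrins.

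Early-anagen McSCs with *Oca2*, a late pigmentation gene that encodes a melanosomal transporter, were set against those without it. The split asks whether integrin levels went with *Oca2* within early anagen, and it does not follow cells to the bulb. At 10000 UMIs per cell 292 McSCs (10.5%) had an *Oca2* UMI and 2493 did not. The abundant subunits were close in the 2 groups, and each was above its bulb level in both. The level of *Itgb1* was 275 CPM with *Oca2* and 319.6 CPM without it, a log2 ratio of -0.22 (-0.32 to -0.11). *Itgav* was at 47.3 and 48.9 CPM (-0.05, -0.31 to 0.20), *Itga6* at 33.6 and 39.6 CPM (-0.24, -0.55 to 0.06), and *Itga9* at 20.9 and 24.8 CPM (-0.25, -0.65 to 0.13).

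*Itga1*, *Itgb5* and *Itga4* had the lowest ratios among the subunits with UMIs in both groups. The *Oca2*+ cells had 30 UMIs of *Itga1* (10.3 CPM) and the *Oca2*- cells 380 (15.2 CPM), a log2 ratio of -0.57 (-1.16 to -0.03). *Itga1* was the only one past the limit of 0.5 used within the library, out of 6 with a mean of at least 10 CPM. The background was 7.36% of 7407 genes in the lower and 7.22% in the higher direction, so 1 of 6 is not a result about the group as a whole. The call was lost above 20000 UMIs per cell, without the deepest 10% of cells, without any keratin UMI, and with at least 2 *Oca2* UMIs. *Itgb5* was at 8.22 and 11.8 CPM (-0.52, -1.19 to 0.08) and *Itga4* at 4.11 and 5.90 CPM (-0.52, -1.51 to 0.33). Counts this small moved with the random thinning: a second draw gave -1.11 for *Itga1* and -1.34 for *Itgb5*. With the cells split as before but all of their UMIs counted, *Itga1* was at -0.65 (-1.01 to -0.32), *Itgb5* at -0.89 (-1.32 to -0.48) and *Itga4* at -0.54 (-1.10 to -0.02), with *Itga9* at 0.19 (-0.03 to 0.40).

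*Itgb3*, the subunit that was higher in the bulb, was rare in both groups and its UMIs lay more often in *Oca2*+ cells. After thinning there were 4 UMIs in 292 *Oca2*+ cells and 10 in 2493 *Oca2*- cells, a log2 ratio of 1.77 (-0.36 to 3.57). With all UMIs counted there were 19 and 23, or 2.32 and 0.341 CPM, a log2 ratio of 2.77 (1.81 to 3.71). The cell with 9 *Itgb3* UMIs was among the *Oca2*+ cells, and without it the ratio was 1.85 (0.61 to 2.98) on 10 and 23 UMIs. By cells, 9 of 292 *Oca2*+ cells (3.08%, 1.42% to 5.77%) and 23 of 2493 *Oca2*- cells (0.923%, 0.586% to 1.38%) held a UMI. *Oca2*+ cells were somewhat deeper before thinning (a median of 26751 against 24149 UMIs), and fewer of them were cycling (24.0% against 37.7%). Their summed level of *Krt5*, *Krt14*, *Krt17*, *Sfn* and *Perp* was lower (18.2 against 24.6 CPM). The part of these in the differences was not tested.

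Set beside bulb melanocytes with *Oca2*, the *Oca2*+ McSCs kept *Itga1*, *Itgb5* and the higher *Itga6* of early anagen. For this, 3126 *Oca2*+ bulb cells at 10000 UMIs were used, 446 bulb melanocytes of lower depth being left out. *Itga6* was at 33.6 CPM in *Oca2*+ McSCs and 7.13 CPM in *Oca2*+ bulb cells (-2.23, -2.58 to -1.88), and *Itga9* at 20.9 and 7.81 CPM (-1.42, -1.83 to -0.99). *Itgb1* was at 275 and 150.4 CPM (-0.87, -0.98 to -0.76), which is under the 2-fold limit. *Itga1* had 30 UMIs in 292 *Oca2*+ McSCs and 5 in the 3126 bulb cells (10.3 and 0.160 CPM). *Itgb5* had 24 and 0 UMIs, 85.6-fold lower in the bulb with the 0 set at 3 counts (exact upper limit of the log2 ratio -6.01). *Itgb3* was at 1.37 CPM in *Oca2*+ McSCs, with 4 UMIs, and at 7.07 CPM in *Oca2*+ bulb cells, a log2 ratio of 2.37 (0.99 to 4.26).

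Cycling and non-cycling early-anagen McSCs were compared in the same way, a cell being taken as cycling when it had a UMI of *Mki67* or *Top2a*. There were 1009 cycling and 1776 non-cycling cells. *Itga9* was the subunit that differed, with 17.7 CPM in cycling cells (179 UMIs) and 28.2 CPM in non-cycling cells (500 UMIs), a log2 ratio of -0.67 (-0.92 to -0.42). It was 1 of 6 subunits past the limit of 0.5 in the lower direction, where 4.79% of 7449 genes were, and 0 of 6 were past it in the higher direction, where 9.21% were. *Itgav* followed with 42.4 and 52.4 CPM (-0.30, -0.47 to -0.14). *Itgb1* (-0.03), *Itga6* (-0.03), *Itgb5* (-0.04) and *Itga1* (-0.13) had intervals that held 0. With all UMIs of the same cells counted, *Itga1* was at 0.22 (0.05 to 0.40), the opposite sign, and 1 of its 5 alternatives kept a value below 0, so no direction is given for it. *Itga9* was lower in cycling cells under each of the 5 alternatives, between -0.94 and -0.73. Cycling cells were deeper before thinning, with a median of 34681 against 21046 UMIs. Their summed level of *Krt5*, *Krt14*, *Krt17*, *Sfn* and *Perp* was 27.9 against 21.7 CPM.

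Of 32 genes of the adhesion core, which link integrins to the cytoskeleton, 23 had a mean of at least 10 CPM, and 10 of these were lower in the bulb past the 2-fold limit and 2 higher, against 25.8% lower and 16.4% higher of all 7291 genes tested. The median log2 ratio was -0.94, against -0.11 for all genes. Talin 1 (*Tln1*), which binds the beta tail and activates the receptor, was at 195.9 CPM in early anagen and 61.8 CPM in the bulb (-1.66). *Ptk2*, which encodes focal adhesion kinase, was at 31.0 and 8.75 CPM (-1.82), and *Lims1*, the PINCH adaptor of integrin-linked kinase, at 89.9 and 27.5 CPM (-1.71). *Lims2*, the related PINCH adaptor, ran the other way, from 3.54 to 17.3 CPM (2.29), as did *Parvb*, a parvin of the same complex, from 15.3 to 32.8 CPM (1.10). Of the same complex, and chosen after their values were seen, the paralogue *Parva* was at 35.1 and 11.7 CPM (-1.58), and *Ilk*, which encodes integrin-linked kinase, was at 77.7 and 149.7 CPM (0.95), under the limit.

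**Figure D5:**
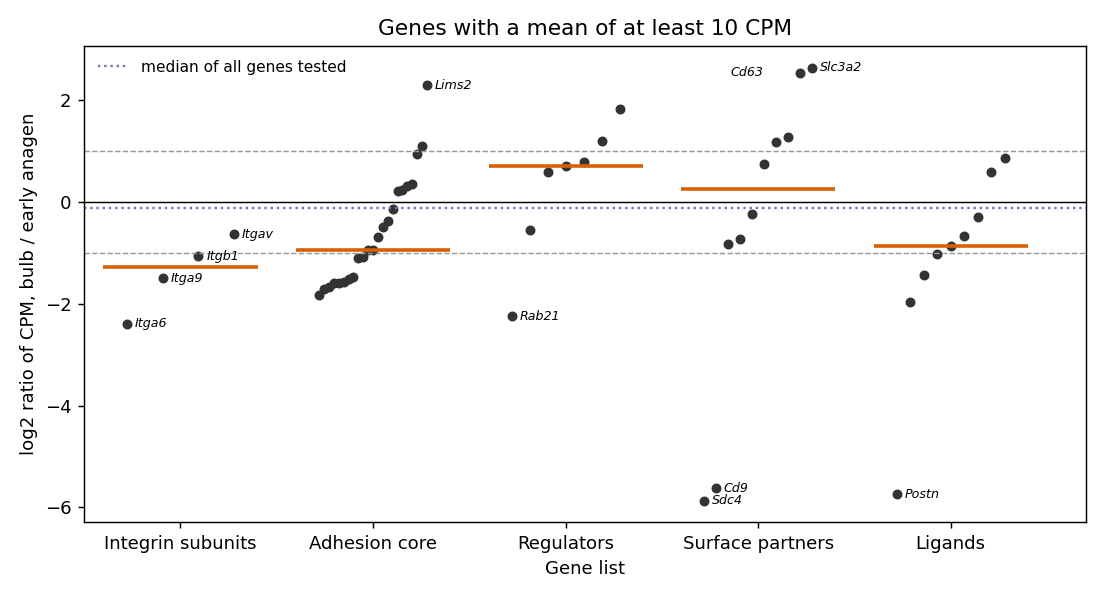
Log2 ratio of CPM, bulb over early anagen, for each gene with a mean of at least 10 CPM, by gene list; the orange bar is the median of a list, the dotted line the median of all 7291 genes tested (-0.11) and the dashed lines the 2-fold limits. The adhesion core and the integrin subunits have medians of -0.94 and -1.28, while the surface partners spread from -5.87 (*Sdc4*) to 2.64 (*Slc3a2*).

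Regulators of integrin activity and traffic moved in both directions. Of 10 genes 7 were tested, with 2 higher (16.4% of all genes were), 1 lower (25.8%) and a median of 0.71, so these few calls are not a result about the list. *Cib1*, a calcium-binding protein of integrin tails, was at 107 CPM in early anagen and 377 CPM in the bulb (1.82), and *Itgb1bp1*, which competes with talin for the *Itgb1* tail, at 48.4 and 111.5 CPM (1.20). *Rab21*, which carries internalised integrins through endosomes, was at 97.7 and 20.6 CPM (-2.24).

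Membrane partners of integrins held large differences in both directions. Of 11 genes 10 were tested, 4 being higher and 2 lower, where 16.4% and 25.8% of all genes were, with a median of 0.26. *Slc3a2*, the heavy chain of an amino acid transporter that also binds beta tails, was at 368 and 2289 CPM (2.64). *Cd63*, a tetraspanin that is also found on melanosomes, was at 2095 and 12132 CPM (2.53), and *Bsg* at 652 and 1576 CPM (1.27). *Sdc4*, a syndecan that acts with fibronectin receptors, was at 43.8 and 0.752 CPM (-5.87) and the tetraspanin *Cd9* at 659 and 13.3 CPM (-5.63).

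Of 26 ligand genes 9 were tested in the melanocytes themselves, with 4 lower (25.8% of all genes were), 0 higher (16.4%) and a median of -0.87. *Postn* (periostin) was at 26.8 CPM in early anagen and 0.501 CPM in the bulb (-5.74), *Lamc1*, the common laminin gamma chain, at 47.9 and 12.3 CPM (-1.96), and *Lama4* at 35.1 and 13.0 CPM (-1.43). Under the CPM minimum, and named after their values were seen, *Col4a1*, a chain of the type IV collagen that *Itga1* binds, had 1092 UMIs in early anagen and 1 in the bulb, and *Fn1* (fibronectin) had 1000 and 8.

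Between *Oca2*+ and *Oca2*- McSCs, where 7.36% of all genes were lower and 7.22% higher, few genes of the lists were past the limit of 0.5. Of 10 ligands tested 2 were lower and 1 higher. *Col4a1* was at 3.77 CPM in the *Oca2*+ cells and 17.0 CPM in the rest (-2.18, -3.19 to -1.32), *Postn* at 19.9 and 31.6 CPM (-0.67), and *Npnt* (nephronectin) at 29.5 and 13.0 CPM (1.18, 0.82 to 1.53). Of 10 surface partners 2 were lower, *Sdc4* (22.6 and 51.6 CPM, -1.19) and *Cd9* (461 and 745 CPM, -0.69), and 1 was higher, *Slc3a2* (635 and 338 CPM, 0.91). Of 23 adhesion core genes 1 was lower, *Zyx*, the focal adhesion protein zyxin (33.6 and 51.2 CPM, -0.61), and of 7 regulators 1 was higher, *Itgb1bp1* (65.1 and 45.6 CPM, 0.51).

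Between cycling and non-cycling cells, where 9.21% of all genes were higher and 4.79% lower, 1 of 23 adhesion core genes was higher, *Tln2* (0.50), which is no more than the share of all genes. Of 12 ligands 1 was higher, *Fbn1* (0.51), and 1 lower, *Fn1* (-0.87). None of the 7 regulators or 10 surface partners tested was past the limit.

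Of the 16 integrin genes outside the 10, none reached a mean of 10 CPM over the 2 libraries. *Itga5* was at 10.4 CPM in early anagen and 5.37 CPM in the bulb (-0.95). Within early anagen it was the only one of the 16 to be tested, at 12.7 and 11.1 CPM with and without *Oca2* (0.19, -0.35 to 0.69) and at 9.71 and 12.2 CPM in cycling and non-cycling cells (-0.32, -0.68 to 0.03). No UMI was found in any melanocyte for 4 genes (*Itgad*, *Itgal*, *Itgb2* and *Itgb6*).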

How the data were processed

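Back skin cells of Dct-rtTA; tetO-H2B-GFP mice were sorted for GFP and profiled as 2 10x libraries, 1 of early-anagen McSCs (version 3 kit) and 1 of bulb melanocytes (version 2 kit), each from the pooled cells of 4 mice. The authors aligned the reads to mm10 with Cell Ranger 6.0.1, as the submitters' processing notes name it, and deposited raw UMI counts per gene and barcode, without a filter on cell type. A telogen library is not analysed here.

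Melanocytes were chosen by the limits on *Dct*, keratin, mitochondrial and total UMIs given above. No doublet caller was run, and an alternative left out the deepest 10% of cells. Levels were summed UMIs as CPM. Ratios have the exact 95% interval of 2 Poisson sums and shares a Clopper-Pearson interval. For a fold, a 0 was set at 3 counts, which leaves out the counting error of the other group. For splits of the early-anagen cells, 10000 UMIs were drawn at random from each. Shares were taken at 5000 UMIs. A gene was past the fold when its log2 ratio was at least 1 in size between libraries, or 0.5 within early anagen, with an interval off 0, a mean of at least 10 CPM and UMIs in both groups. All genes were computed in each of the 3 comparisons, and the ratio was tested on simulated data with 200 changed genes. The simulated counts were Poisson, as the interval assumes, so this checks the calculation and not the model. Python 3.11.15, scipy 1.17.1 and edgeR 4.0.16 (TMM factors, an alternative) were used. All 10 subunits are named. From each other list the 3 genes with the largest ratio in each direction past the fold are named, and others are said to be chosen later. The subunits and lists were chosen with earlier results of these data known. Positions are from GENCODE vM21 (GRCm38) and upstream sequences from RefSeq, which held 8 of the 10 genes.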

Additional observations from a re-analysis of the deposited data

How the results depend on the processing

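The 9 subunits with UMIs in both libraries kept their direction in the bulb over early anagen under every alternative that gave a ratio (15 each, 13 for *Itga3* and 12 for *Itgb5*), with log2 ranges of -7.27 to -6.01 for *Itga1*, -2.67 to -2.08 for *Itga6*, -0.77 to -0.33 for *Itgav* and 2.37 to 4.64 for *Itgb3*. The median of the abundant subunits moved from -1.28 to -1.19 without a keratin limit, to -1.41 with a total free of mitochondrial, ribosomal protein and pigmentation genes, to -0.97 with TMM factors, to -1.43 with every cell at 5000 UMIs and to -1.15 in *Oca2*+ cells of both libraries. Without a CPM minimum 7 subunits were lower and 1 higher.

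For *Oca2*+ over *Oca2*- cells, the count of 1 lower subunit became 0 above 20000 UMIs, 0 without any UMI of *Krt5*, *Krt10*, *Krt14* or *Krt15*, 0 without the deepest 10% of cells, 0 with at least 2 *Oca2* UMIs, and 2 at a mitochondrial limit of 10%. *Itga1*, *Itga6*, *Itgb1* and *Itgb5* stayed below 0 and *Itgb3* above 0 in the 17 alternatives. *Itga9* and *Itgav* kept their sign in 15 of 17, *Itga4* in 16 of 17 and *Itga3* in 13 of 16. For cycling cells, *Itga1* (-0.13) ranged from -0.01 to 0.22. There *Itgb1* and *Itgb3* kept their sign in 2 of 5 alternatives, *Itga4* and *Itga6* in 4 of 5 and *Itga2* in 3 of 4. The mean number of subunits per cell was 3.25 (early anagen) and 1.51 (bulb) without thinning. Over the other gene lists in the bulb over early anagen, TMM factors gave 13 higher genes in place of 8. The share of all genes that were higher went from 16.4% to 24.5%. With no CPM minimum 31 genes of the lists were lower in place of 17, and more of them were tested. The share of all genes that were lower went from 25.8% to 31.6%. Of the other summary values and counts 105 stayed near their first value, as did 301 values of single subunits, while 30 moved.

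The second thinning, the counts of all UMIs after the split, the exclusion of cells with epithelial or with immune UMIs, the *Oca2*+ cells of both libraries and the wider definition of epithelial-rich barcodes were chosen after the data were seen, the last because *Krt5* and *Krt14* alone gave 1 such barcode in the bulb. No paired analysis was possible because each condition was 1 library. With 1 library per condition, the spread between mice is unknown. *Itga2*, *Itga3* and early-anagen *Itgb3* rest on 42 UMIs or fewer per library. So do the bulb levels of *Itgb5* (4 UMIs), *Itga1* (7 UMIs) and *Itga4* (35 UMIs), and with them their folds.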
